A study of Mus musculus with 12 samples.

Results

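The transcripts of IRAK4 kinase-dead mouse embryonic fibroblasts stimulated with interleukin-1 beta (IL-1b) for 4 h were compared with those of the same cells grown for 4 h without stimulation. The comparison rests on 4 of the 12 arrays of the series, chosen by their titles: 2 arrays of kinase-dead cells with IL-1b for 4 h and 2 of kinase-dead cells left unstimulated. Both groups were cultures of fibroblasts from embryos of animals with a kinase-dead form of IRAK4, grown in the same serum-containing medium, and they differed in the addition of mouse IL-1b at 1 ng/ml. The other 8 arrays were 2 of kinase-dead cells with IL-1b for 1 h and 6 of wild-type fibroblasts in the same 3 conditions. The submitters call the 2 samples of each group biological replicates, but whether these were separate embryos or separate dishes is not stated, and p-values here measure only the spread between them. The labels do not give the form of the mutation. The comparison asks which part of the IL-1b response was measured in cells whose IRAK4 has no kinase activity.

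IL-1b binds the receptor IL1R1 and its partner IL1RAP, which recruit the adaptor MyD88 and the kinases IRAK4 and IRAK1. The ubiquitin ligase TRAF6 then activates the kinase TAK1 (Map3k7), which in turn switches on the IKK complex and the MAP kinases. IKK releases NF-kB from its IkB inhibitors, and NF-kB and AP-1 drive transcription of chemokines, cytokines and their own feedback inhibitors. IRAK4 serves both as an enzyme and as a scaffold of the receptor complex, and fibroblasts are a well-known source of chemokines after IL-1.

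The values are MAS5 signals, in arbitrary units of brightness scaled by the authors to the same trimmed mean of 150 on each array. Fold changes are on the log2(signal + 8) scale, which understates the change of genes with low signals. A gene is called at a Benjamini-Hochberg adjusted p under 0.05 in limma's moderated test, adjusted over all 12456 genes tested. Across probe sets, log2 signals correlated at 0.9745 between the kinase-dead 4 h arrays, at 0.9726 between the unstimulated ones and at 0.9691 to 0.9729 between the groups. The number of arrays, 2 in each group, limits the precision. Some of 12 fibroblast markers differed between the genotypes without stimulation. Mean signals in unstimulated wild-type and kinase-dead cells were 583.5 and 131.85 for Pdgfra, 362.75 and 64.4 for Lum and 3007 and 1535 for S100a4. Those of Col1a1, Col1a2, Col3a1, Vim and Fn1 were higher in kinase-dead cells, such as Vim at 5948.5 and 6649. None of the 12 was under the signal filter of 25.5 on both arrays of a group. Their summed signal was 33098 to 33434 in unstimulated kinase-dead cells and 31801 to 32996 after 4 h. The summed signal of the 13 macrophage markers with a probe set was 843.7 to 879.3 and 689.7 to 744 in those groups, against 277.3 to 339.9 over the 6 wild-type arrays, and none of the 11 tested was called at 4 h. Of those 11, 8 had a change below 0 and 3 above 0. Mean signals unstimulated and at 4 h were 282.6 and 245 for Lyz2, 140.8 and 98.2 for C1qb and 40.9 and 37.5 for Csf1r, and none of these markers was at 0. The 3 that went up were Cd68 (22.85 and 41.75), Adgre1 (29.1 and 31.95) and Fcgr3 (21.55 and 24.3). The ratio of the actin control probe sets at the 3' and 5' ends, which reflects RNA integrity and amplification, was 2.85 ± 0.0178 in unstimulated kinase-dead cells and 2.49 ± 0.0899 after 4 h (SD, n = 2 each). It moved with this comparison, and its part in the results was not tested. Signal of the Irak4 transcript was not analysed here.

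The response at 4 h was small in number and held 6 chemokines among its 7 largest rises. Of the 12456 genes tested, 77 were called (0.618% of the genes), 55 higher (0.442%) and 22 lower (0.177%). A change of at least 2-fold was reached by 25 of the rises and 3 of the falls (0.225% of the genes in all). The median rise was 0.94 and the median fall was -0.56 on the log2 scale, beside a median of -0.01 over all genes. An unadjusted p under 0.05 was found for 1700 genes (13.6%). The 4 arrays separated completely for all 77 called genes, and also for 47.2% of all genes tested, so that separation alone says little with 2 arrays a group. The mean unstimulated kinase-dead signal of 10 of the 55 rises was below the filter signal of 25.5. The filter counted all 12 arrays, so these genes entered the test through other arrays. Some passed on the wild-type unstimulated arrays, such as Cxcl5 at 104.6 and 136.3. Cxcl2, at 2.7 and 4.7 on those arrays, entered through stimulated arrays. The count depended on the spread shared over groups: it was 316 without either wild-type unstimulated array, 324 without both and 334 in a fit of the 6 kinase-dead arrays alone. It was 28 without 4 h replicate 1 and 30 without 4 h replicate 2. All 55 rises and all 22 falls were called again without either wild-type unstimulated array, and 19 of the 55 rises but 0 of the 22 falls were called in all 12 fits that left out 1 array.

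**Figure D1:**
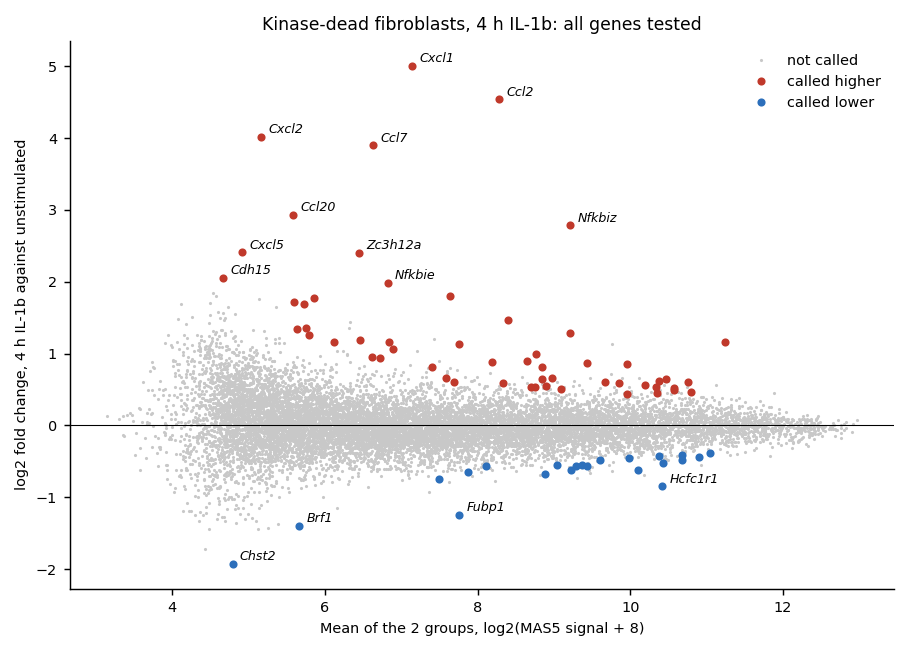
Log2 fold change at 4 h in kinase-dead cells (vertical axis) against the mean log2(signal + 8) of both groups (horizontal axis), 1 point for each of the 12456 genes. The 55 genes called higher are red and the 22 called lower are blue; Cxcl1 at 5.01 and Ccl2 at 4.54 stand highest, and Chst2 at -1.92 lowest among the called genes.

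Chemokines, the secreted proteins that attract leukocytes, gave the largest rises. Of 21 chemokines tested 6 rose and 0 fell in kinase-dead cells, with a median change of 0.10 over the 21 beside -0.01 over all genes. Cxcl1, which attracts neutrophils through the receptor CXCR2, had signals of 22.8 and 11.7 on the unstimulated arrays and 855 and 720.3 on the 4 h arrays. It rose by 5.01 ± 0.25 on the log2 scale (SE; adjusted p = 1.13e-09), and its other 2 tested probe sets rose by 4.91 and 5.65. Both stimulated arrays lay far above both controls. In bulk RNA, more cells with a transcript and more of it in each cell cannot be told apart.

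Ccl2, the main monocyte attractant acting through CCR2, went from 60.6 and 53 to 1498 and 1499.9, a rise of 4.54 ± 0.17 (adjusted p = 2.34e-11). Ccl7, a second CCR2 ligand, went from 20.5 and 14.9 to 376 and 370.4, a rise of 3.90 ± 0.16 (adjusted p = 5.79e-11). The replicates of both monocyte attractants were nearly equal after stimulation. Cxcl2, another CXCR2 ligand, had signals of 1.1 and 0.7 unstimulated and 142.8 and 129.3 at 4 h, a rise of 4.02 ± 0.16 (adjusted p = 5.79e-11). Cxcl5, a further CXCR2 ligand, went from 0.8 and 10.2 to 67.3 and 52.2, a rise of 2.41 ± 0.25 (adjusted p = 4.12e-05). Ccl20, the ligand of CCR6 on lymphocytes and dendritic cells, went from 14.4 and 4.8 to 100.8 and 146, a rise of 2.93 ± 0.24 (adjusted p = 1.5e-06). Apart from Ccl2, the unstimulated signals of these chemokines lay under the filter on both arrays, so the size of their fold changes depends on the pseudocount. With a pseudocount of 1 and of 32 in place of 8, the log2 change was 5.50 and 4.06 for Cxcl1, 4.34 and 3.03 for Ccl7, 6.18 and 2.35 for Cxcl2, 3.75 and 1.30 for Cxcl5 and 3.69 and 1.90 for Ccl20, and all were called. No array of either group overlapped with the other for any of these genes, and the 6 chemokines were called in all 12 fits that left out 1 array.

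Of the 15 chemokines that did not pass, 7 nonetheless had a called rise in wild-type cells at 4 h. The following were picked after their values were seen. Ccl5 had a change of 0.05 in kinase-dead cells against 4.13 in wild-type cells, Cxcl3 of 0.00 against 4.57, Ccl9 of -0.31 against 2.96 and Ccl11 of 0.00 against 2.66. The response difference was called for each of these 4, with Ccl5 at -4.08 (adjusted p = 0.00019) and Ccl11 at -2.66 (adjusted p = 0.00152) as examples. Cxcl12, a chemokine that fibroblasts make without stimulation, had mean signals of 4743 and 4828 in unstimulated and 4 h kinase-dead cells, a change of 0.02.

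**Figure D2:**
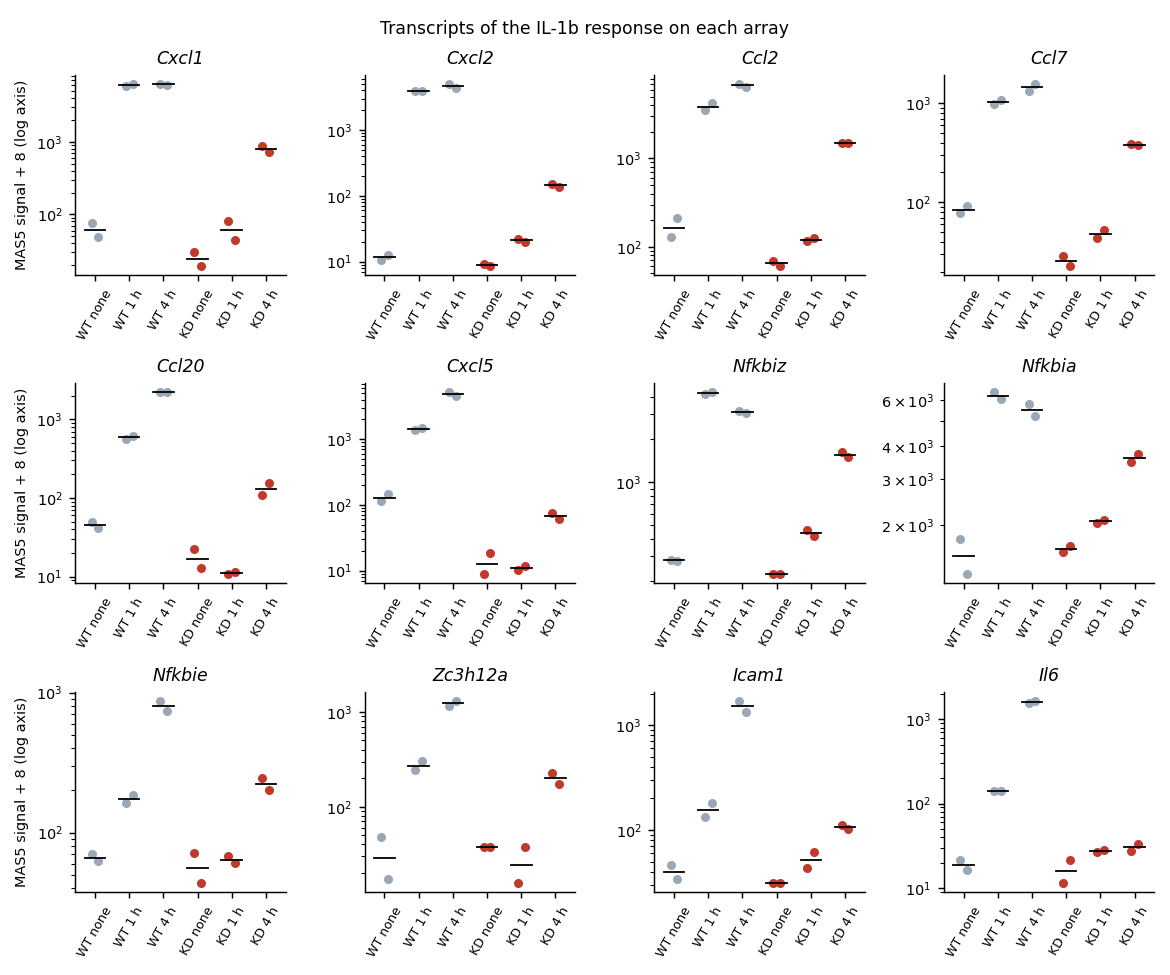
MAS5 signal + 8 on a log axis for 12 transcripts of the IL-1b response, with 1 point for each array, a line at each group's mean, wild type (WT) in grey and kinase dead (KD) in red; "none" marks the unstimulated 4 h groups. Cxcl1 at 4 h sits at 855 and 720.3 signal units in kinase-dead cells, above its 1 h arrays and below all stimulated wild-type arrays, while Il6 stays at 19.5 and 25.3.

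The list of NF-kB subunits and feedback inhibitors formed the next group, with 5 of 14 tested members higher, 0 lower and a median change of 0.74. Nfkbiz, which encodes the nuclear co-activator IkB-zeta needed for secondary inflammatory genes, had signals of 216 and 219 unstimulated and 1615 and 1485 at 4 h. It rose by 2.79 ± 0.09 (adjusted p = 8.26e-12), although its other 2 tested probe sets, at 0.27 and 0.98, were not called. Nfkbia, which encodes IkB-alpha and is the classic NF-kB target, went from 1572 and 1660 to 3487 and 3730, a rise of 1.15 ± 0.11 (adjusted p = 1.59e-05). All 4 of its other tested probe sets were called too, between 1.64 and 1.82. Nfkbie, the gene of IkB-epsilon, went from 63.6 and 35.8 to 237 and 193.2, a rise of 1.99 ± 0.21 (adjusted p = 4.12e-05). Tnfaip3, the gene of the ubiquitin-editing inhibitor A20, went from 46 and 55.4 to 118 and 132.1, a rise of 1.18 ± 0.14 (adjusted p = 0.000303). Its other probe set, at 0.43, was not called. Stimulated signals lay above all controls for each of these inhibitors. Zc3h12a encodes Regnase-1, an RNase that degrades inflammatory messages, and went from 30 and 29.6 to 219 and 167.4. Its rise of 2.40 ± 0.38 (adjusted p = 0.00434) was lost without 4 h replicate 1 (adjusted p = 0.101), and its other probe set changed by 0.42. Among members that missed the threshold, Bcl3 had a change of 1.21 (adjusted p = 0.085) and Relb of 0.99 (adjusted p = 0.0588), and the NF-kB subunit Rela of 0.48 (adjusted p = 0.187).

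The stretch before the transcription start was read for genes with a promoter in the RefSeq table of GRCm38.p6, which held 44 of the 55 rises and 15 of the 22 falls. The kappaB motif searched (GGGA, any 2 bases, then TTCC, on both strands of the 250 bases before the start) is a common form of the NF-kB binding site. It was found in 4 of the 44 rises (9.09%), in 0 of the 15 falls, in 1.42% of the 10051 tested genes with a promoter and in 1.21% of all 32851 promoters in the table. The 4 rises were Cxcl1, Cxcl2, Nfkbia and Csf1, and they are shown with Il6, which holds the motif too and did not pass the test in kinase-dead cells. The windows are chr5:90890995-90891244 (plus strand), chr5:90903649-90903898 (plus), chr12:55492648-55492897 (minus), chr3:107760470-107760719 (minus) and chr5:30012864-30013113 (plus), each written in the direction of its gene with the motif in capitals. In Cxcl1 and Cxcl2 a match on each strand overlaps the other, so that both matches mark 1 site, 71 to 61 and 97 to 87 bases before the start.
Cxcl1: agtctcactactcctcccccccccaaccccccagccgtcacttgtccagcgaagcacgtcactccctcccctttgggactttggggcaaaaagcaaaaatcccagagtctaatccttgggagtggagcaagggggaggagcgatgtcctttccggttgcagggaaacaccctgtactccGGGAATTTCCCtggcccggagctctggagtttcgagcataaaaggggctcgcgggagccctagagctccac
Cxcl2: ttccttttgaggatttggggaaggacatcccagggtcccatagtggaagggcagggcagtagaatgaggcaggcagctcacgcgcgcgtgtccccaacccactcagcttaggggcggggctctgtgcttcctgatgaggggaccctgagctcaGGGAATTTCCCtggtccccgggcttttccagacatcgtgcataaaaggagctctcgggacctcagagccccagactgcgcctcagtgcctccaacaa
Nfkbia: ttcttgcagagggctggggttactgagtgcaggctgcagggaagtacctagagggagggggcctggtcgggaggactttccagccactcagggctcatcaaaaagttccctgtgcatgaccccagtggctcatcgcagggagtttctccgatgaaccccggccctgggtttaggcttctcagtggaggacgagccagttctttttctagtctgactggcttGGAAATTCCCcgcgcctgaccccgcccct
Csf1: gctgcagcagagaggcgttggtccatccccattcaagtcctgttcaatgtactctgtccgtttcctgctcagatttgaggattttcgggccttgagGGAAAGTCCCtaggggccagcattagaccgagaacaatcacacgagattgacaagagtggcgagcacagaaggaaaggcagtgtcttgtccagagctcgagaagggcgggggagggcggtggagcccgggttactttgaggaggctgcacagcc
Il6: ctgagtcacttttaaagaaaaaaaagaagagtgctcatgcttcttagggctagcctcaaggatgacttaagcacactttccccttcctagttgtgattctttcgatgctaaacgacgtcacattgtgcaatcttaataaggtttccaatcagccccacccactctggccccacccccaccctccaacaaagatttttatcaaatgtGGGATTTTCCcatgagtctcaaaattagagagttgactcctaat
The motif began 29 bases before the start in Nfkbia, 154 in Csf1 and 44 in Il6. A match is a description of the letters and not a measured site of binding. Of the other motifs searched, the CRE (TGACGTCA) was in 5 of the 44 rises (11.4%) and 2.92% of tested genes. The AP-1 motif (TGANTCA) was in 6 of the 44 rises (13.6%), 3 of the 15 falls (20%) and 5.56% of tested genes, and the CArG box was in 0 rises and 0 falls.

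Among cytokines and growth factors 4 of 23 tested members rose, 0 fell, and the median change was 0.26. Lif, an IL-6 family cytokine, went from 61.4 and 77.2 to 154 and 172.7, a rise of 1.16 ± 0.14 (adjusted p = 0.000368). Csf1, the growth factor of macrophages, went from 256 and 344 to 611 and 592, a rise of 1.00 ± 0.12 (adjusted p = 0.000358). Fgf7, a growth factor that fibroblasts make for epithelial cells, went from 448 and 566 to 936 and 917, a rise of 0.87 ± 0.11 (adjusted p = 0.000368). Its other probe set, at 0.41, was not called. Lif, Csf1 and Fgf7 were called in all 12 fits that left out 1 array. Tnfsf11, the gene of the osteoclast factor RANKL, went from 16.7 and 30.5 to 81.9 and 60, a rise of 1.34 ± 0.21 (adjusted p = 0.00428). That call was lost without 4 h replicate 1 (adjusted p = 0.108) and without unstimulated replicate 1 (adjusted p = 0.0636).

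Il6, whose promoter is shown above with its motif, did not pass. Its signals were 3.5 and 13.6 unstimulated and 19.5 and 25.3 at 4 h, all below the filter signal of 25.5, and the change was 0.94 ± 0.27 (adjusted p = 0.131). Wild-type cells had a signal of 1566 and 1658 at 4 h, a change of 6.43. The response difference of -5.49 ± 0.39 (adjusted p = 2.91e-07) was the widest among the 21 core IL-1 genes. Csf2, the gene of GM-CSF, had a change of 1.04 in kinase-dead cells (adjusted p = 0.325) and of 3.68 in wild-type cells, and Tslp of 0.26 (adjusted p = 0.498) against 2.85. Both were picked after their values were seen.

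Adhesion molecules that hold leukocytes on the cell surface also rose. Icam1 went from 23.4 on both unstimulated arrays to 103.9 and 94.7, a rise of 1.77 ± 0.22 (adjusted p = 0.000358). Vcam1 went from 227 and 165.4 to 606 and 496, a rise of 1.46 ± 0.21 (adjusted p = 0.00212) that was lost without 4 h replicate 1 (adjusted p = 0.0632). These were 2 of 26 tested members of the adhesion and matrix list, of which 0 fell and whose median was 0.09. The matrix proteases of that list did not pass: Mmp10 had a change of 0.66 (adjusted p = 0.192), Mmp3 of 0.56, Mmp13 of 0.18 and Mmp9 of 0.18. In wild-type cells the same 4 had called rises of 3.67, 1.61, 2.26 and 2.51, and the response difference was called for each, at -3.02, -1.06, -2.08 and -2.33.

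Acute phase and inflammatory effectors gave 2 rises among 16 tested and 0 falls, with a median of 0.42. Ch25h, an enzyme that makes 25-hydroxycholesterol, went from 20.1 and 36.7 to 74.0 and 80.1, a rise of 1.26 ± 0.21 (adjusted p = 0.00607). Steap4, a metalloreductase, went from 22.1 and 15.2 to 69.6 and 90.0, a rise of 1.72 ± 0.35 (adjusted p = 0.0326). The Ch25h call was lost without either 4 h array or unstimulated replicate 1 (adjusted p of 0.0599 to 0.0933), and the Steap4 call without any 1 of the 4 kinase-dead arrays of the comparison or either wild-type 4 h array (adjusted p of 0.0648 to 0.274). Saa3, an acute phase apolipoprotein, had signals of 30.1 and 9.5 unstimulated and 41.3 and 47.3 at 4 h (change 1.02, adjusted p = 0.24). Lcn2, an iron-binding defence protein, had signals of 7.6 and 1.6 and then 3.3 and 8.4 (change 0.15, adjusted p = 0.93), so its groups overlapped. Sod2, the mitochondrial superoxide dismutase, had a change of 0.12 in kinase-dead cells and 1.97 in wild-type cells, with a called difference of -1.85.

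Genes of cell survival gave 3 rises among 18 tested, 0 falls and a median of 0.24. Birc3, an inhibitor of apoptosis that also acts in TNF receptor signalling, went from 69.9 and 79.2 to 178 and 150.2, a rise of 1.06 ± 0.19 (adjusted p = 0.0133). Its other probe set, at 0.09, was not called. The death receptor gene Fas rose by 0.60 (adjusted p = 0.0232) and the stress gene Gadd45a by 0.51 (adjusted p = 0.0275). Each of these calls was lost without one or more of the kinase-dead arrays of the comparison: Birc3 without unstimulated replicate 1 or either 4 h array (up to 0.162), Fas without any of the 4 (up to 0.208) and Gadd45a without any of the 4, 1 h replicate 1 or either wild-type 1 h array (up to 0.232). The interferon-stimulated list gave 1 rise among 26 tested, 0 falls and a median of 0.10. That rise was Gbp7, a guanylate-binding protein, at 0.95 ± 0.20 (adjusted p = 0.0408), while its other probe set, at 0.18, was not called. The Gbp7 rise was called in 2 of the 12 fits that left out 1 array. Its call held without either wild-type unstimulated array and was lost without any other (adjusted p of 0.0565 to 0.281). Gbp3 and Gbp6 had changes of 0.79 and 0.28 that did not pass, against called rises of 4.82 and 4.56 in wild-type cells.

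Further rises lay outside the lists. Rgs16, which shortens G protein signals, went from 95.4 and 101.3 to 341 and 387, a rise of 1.81 ± 0.15 (adjusted p = 1.52e-06). Its other 2 probe sets, at 0.15 and 1.26, were not called. Casp4, the inflammatory caspase that senses bacterial lipopolysaccharide, went from 21.7 and 21.1 to 91.1 and 82.8, a rise of 1.69 ± 0.24 (adjusted p = 0.00147). Stx11, a syntaxin of vesicle transport, went from 133 and 142.6 to 304 and 319, a rise of 1.13 ± 0.15 (adjusted p = 0.000821), with its other probe set called at 1.31. Stx11 was picked after its values were seen. Rgs16, Casp4 and Stx11 were called in all 12 fits that left out 1 array, and their stimulated arrays lay above both controls.

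In the receptor pathway itself 1 of 20 tested members rose and 0 fell, and the median was -0.02. The rise was Il1r1, the signalling receptor of IL-1b, from 211 and 203.5 to 407 and 370 (0.88 ± 0.15, adjusted p = 0.00671). It was lost without either 4 h array (adjusted p of 0.125 and 0.0509) and without unstimulated replicate 2 (adjusted p = 0.067). Myd88 had a change of -0.11, Irak1 of -0.30, Irak2 of 0.05, Traf6 of 0.15 and Map3k7 of -0.15, none of which passed. Map3k8, the kinase TPL2 that links NF-kB to the ERK pathway, had mean signals of 19.8 and 56.2 and a change of 1.21 (adjusted p = 0.094).

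Immediate early genes are the first transcription factors and regulators switched on by a stimulus. They and feedback inhibitors of the MAP kinase pathway held some rises at 4 h. Of 37 immediate early genes tested 5 were higher at 4 h than in unstimulated cells and 0 lower, while 0.442% of all genes were called higher. The median of the 37 was 0.35, and 32 of them lay above 0. Between 1 h and 4 h, where 508 genes were called (4.08%), 282 higher at 4 h (2.26%) and 226 lower (1.81%), 18 of these 37 were lower at 4 h and 3 higher. The unstimulated arrays were of 4 h cultures, so the 1 h signals given here and below have no unstimulated control of the same time. Egr3, a zinc-finger transcription factor, had signals of 261 and 311 unstimulated, 2092 and 2564 at 1 h and 465 and 621 at 4 h. Its change at 4 h against unstimulated was 0.90 ± 0.13 (adjusted p = 0.00262) and between 1 h and 4 h it fell by 2.09 ± 0.13 (adjusted p = 6.11e-08). The rise at 4 h was lost without 4 h replicate 2 (adjusted p = 0.081) and without unstimulated replicate 1 (adjusted p = 0.0507). Fos, a subunit of AP-1, had a mean signal of 104 unstimulated, 1654 at 1 h and 256 at 4 h, so that its change at 4 h missed the threshold (1.20 ± 0.28, adjusted p = 0.0712). Egr1, Jun and Nr4a1 likewise did not pass at 4 h, with changes of 0.26, 0.23 and -0.11, and between 1 h and 4 h they fell by 1.14, 0.96 and 2.27.

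Ier3, an early gene that protects from apoptosis, had like signals at both stimulated times. They were 331 and 414 unstimulated, 992 and 991 at 1 h and 927 and 902 at 4 h, a rise of 1.29 ± 0.10 at 4 h (adjusted p = 1.5e-06) with a difference of -0.12 between 1 h and 4 h (adjusted p = 0.611). Plk2, a stress kinase of the polo family, rose by 0.66 (adjusted p = 0.0232), Btg2, an antiproliferative p53 target, by 0.60 (adjusted p = 0.0379), and Sgk1, a serum-induced kinase picked after its values were seen, by 0.53 (adjusted p = 0.0165). The Sgk1 call was lost without 4 h replicate 1 (adjusted p = 0.105), 4 h replicate 2 (0.195) or unstimulated replicate 1 (0.14). The Plk2 call was lost without any 1 of the 4 arrays of the comparison (adjusted p up to 0.262). The Btg2 call was lost without either 4 h array, unstimulated replicate 1 or any 1 h array of either genotype (adjusted p up to 0.218). Spry2 and Errfi1, which restrain receptor kinase signalling, were the 2 of 19 MAPK feedback genes that rose, by 0.85 ± 0.12 (adjusted p = 0.00147) and 0.50 ± 0.10 (adjusted p = 0.0326), and 0 of the 19 fell. The other Spry2 probe set, at 0.26, was not called. Spry2 went from 785 and 678 to 1298 and 1345 and was called in all 12 such fits, while the Errfi1 call was lost without 4 h replicate 2, unstimulated replicate 1 or any 1 h array of either genotype (adjusted p up to 0.355). The phosphatases Dusp1 and Dusp5 had changes of -0.09 and 0.17 at 4 h, and between 1 h and 4 h they fell by 1.32 and 1.22.

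The chemokines ran the other way in time. Between 1 h and 4 h in kinase-dead cells Cxcl1 rose by 3.71 (adjusted p = 7.75e-08), Ccl2 by 3.65 (adjusted p = 1.55e-09), Ccl20 by 3.54 (adjusted p = 7.75e-08), Ccl7 by 2.98, Cxcl2 by 2.77 and Cxcl5 by 2.63. Their signals at 1 h were 73.8 and 36.7 for Cxcl1, 107 and 116 for Ccl2 and 2.7 and 3.5 for Ccl20. Of 21 chemokines 8 were higher at 4 h than at 1 h and 0 lower, and of 14 NF-kB genes 5 were higher and 0 lower. Nfkbiz rose by a further 1.82, Nfkbie by 1.79 and Nfkbia by 0.81 between those times, while Tnfaip3 differed by 0.44 (adjusted p = 0.0946). Both times use the 4 h arrays or the same unstimulated arrays, so these contrasts are not independent of each other.

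The 4 h response was smaller in kinase-dead than in wild-type cells for most of the core IL-1 genes. Of the 21 core genes 14 were called higher in kinase-dead cells and 20 in wild-type cells, with median changes of 1.20 and 4.08. The difference between the responses was called for 377 genes (3.03%), 181 of them higher (1.45%) and 196 lower (1.57%) in kinase-dead cells, and its median over all genes was 0.10. It was called for 15 of the 21 core genes, each with the smaller change in kinase-dead cells. The core genes were chosen with earlier results of these data known, so their counts and medians are a description and not a test. Cxcl2 had the widest gap of the called chemokines, at 4.02 against 8.65 in wild-type cells (difference -4.63 ± 0.23, adjusted p = 5.34e-09). Icam1 differed by -3.48, Lif by -2.93, Tnfaip3 by -2.29, Ccl20 by -2.67 and Cxcl5 by -2.84. Cxcl1 differed by -1.64 ± 0.35 (adjusted p = 0.014), a call that was lost without 4 h kinase-dead replicate 2, unstimulated kinase-dead replicate 1 or wild-type 4 h replicate 1 (adjusted p of 0.0649 to 0.0797). With a pseudocount of 1 the differences of Cxcl1 (-1.33, adjusted p = 0.114) and Cxcl5 (-1.58, adjusted p = 0.297) were not called. Nfkbiz differed by -0.68, a call that was lost without 4 h kinase-dead replicate 2 (adjusted p = 0.05). Nfkbia differed by -0.70, a call that was lost without either 4 h kinase-dead array, unstimulated kinase-dead replicate 2 or wild-type 4 h replicate 1 (adjusted p of 0.0548 to 0.101).

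For the monocyte attractants the difference did not pass. Ccl7 changed by 3.90 in kinase-dead and 4.11 in wild-type cells, a difference of -0.21 ± 0.22 (adjusted p = 0.68), and Ccl2 by 4.54 and 5.35, a difference of -0.81 ± 0.24 (adjusted p = 0.0786). Both turn on the pseudocount. The Ccl7 difference was 0.11 with a pseudocount of 1 (adjusted p = 0.863) and -0.74 with 32 (adjusted p = 0.0303), so no direction is given for it, and that of Ccl2 was -0.71 (adjusted p = 0.155) and -1.05 (adjusted p = 0.0077). A difference that misses the threshold does not show equal responses. The signals at 4 h were lower in kinase-dead cells for both: 376 and 370.4 against 1337 and 1570 in wild-type cells for Ccl7, and 1498 and 1499.9 against 7026 and 6412 for Ccl2. Their unstimulated signals were lower too, at a mean of 17.7 against 76.5 for Ccl7 and 56.8 against 162 for Ccl2. Fold changes therefore start from different levels in the genotypes. Csf1 (difference -0.63, adjusted p = 0.0628), Fgf7 (-0.35, adjusted p = 0.263), Ier3 (-0.46, adjusted p = 0.111) and Birc3 (-0.44, adjusted p = 0.432) also rose in both genotypes without a called difference.

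**Figure D3:**
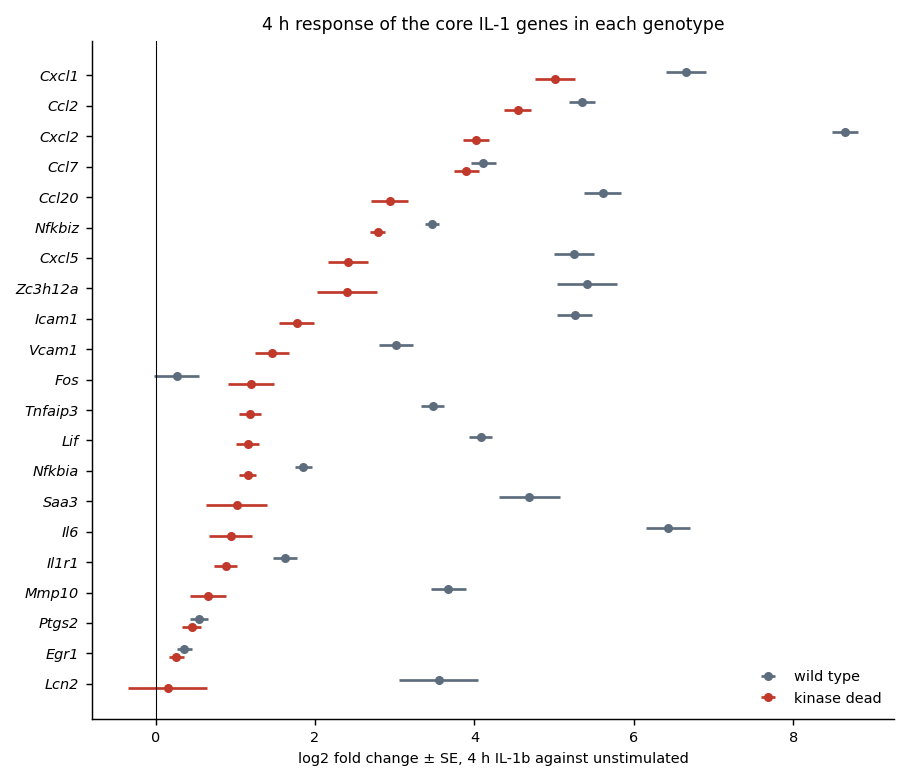
Log2 fold change ± SE at 4 h (horizontal axis) for the 21 core IL-1 genes in wild-type (grey) and kinase-dead (red) cells, sorted by the kinase-dead value. With the pseudocount of 8 used here, the points lie close together for Ccl7 (3.90 and 4.11) and far apart for Il6 (0.94 and 6.43) and Cxcl2 (4.02 and 8.65).

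The 4 h comparisons of the 2 genotypes use different arrays. They share the estimate of spread for each gene and the choice of probe sets, both made over all 12 arrays. The 2 lists of calls are therefore not independent. Of the 55 kinase-dead rises 41 were also called higher in wild-type cells at 4 h (74.5%), which is 7.06% of the 581 wild-type rises (4.66% of all genes), and 0 were called lower there. Wild-type cells had 1501 called genes in all (12.1%), 371 of them changed at least 2-fold (2.98%). Of the 195 genes that rose at least 2-fold in wild-type cells 33 were called higher in kinase-dead cells, where their median change was 0.30 against 1.66 in wild-type cells. These genes were selected by their wild-type change, which raises the wild-type median by construction, so the gap between the medians is not a test. The 581 wild-type rises had a median change of 0.16 in kinase-dead cells, and 438 of them lay above 0. Of the 22 kinase-dead falls only Prickle1, a planar cell polarity gene, was also called lower in wild-type cells (4.55% of the falls, 0.109% of the 920 wild-type falls, which are 7.39% of all genes). The 920 wild-type falls had a median change of -0.11 in kinase-dead cells.

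The 14 kinase-dead rises that were not called in wild-type cells were Cdh15, Ptprcap, Ube2d1, Med14, Eif2s3x, Plcb3, Mtx2, Pfn1, Rnf44, Lats1, Gtpbp10, Sgk1, Acsl4 and Morc3. The response difference was called for 2 of them. Cdh15, the gene of the muscle protein M-cadherin, went from 5.3 and 3.6 to 41.9 and 45.6 in kinase-dead cells, a rise of 2.06 ± 0.33 (adjusted p = 0.00438), and changed by -0.03 in wild-type cells. The difference was 2.09 ± 0.46 (adjusted p = 0.0177). Its wild-type signals were 32.1 and 26.4 unstimulated and 32.9 and 24.2 at 4 h, so that the unstimulated kinase-dead arrays lay below all 6 wild-type arrays and the 4 h ones above them. The call of the difference was lost without either kinase-dead 4 h array, unstimulated kinase-dead replicate 2 or wild-type 4 h replicate 2 (adjusted p of 0.0585 to 0.081). The rise was lost without either 4 h array (adjusted p of 0.0606 and 0.081), and the summed signal of the 7 muscle markers with a probe set was 89.2 to 137 unstimulated and 106 to 129.5 at 4 h. Ube2d1, a ubiquitin-conjugating enzyme, rose by 0.81 ± 0.17 (adjusted p = 0.0334) against -0.14 in wild-type cells, a difference of 0.95 (adjusted p = 0.0341). It was picked after its values were seen, and its rise was called in 7 of the 12 fits that left out 1 array. The call of its difference was lost without unstimulated kinase-dead replicate 1 (difference 0.76) or wild-type unstimulated replicate 2 (0.95). It was also lost without any 1 of the 4 h arrays of either genotype (0.85 to 1.06) or either wild-type 1 h array (0.95). Ptprcap, a protein bound to the leukocyte phosphatase CD45, went from 37.0 and 16.3 to 81.0 and 72.3, a rise of 1.35 (adjusted p = 0.0329) with a difference that did not pass (1.36, adjusted p = 0.0742). The rise was lost without 4 h replicate 1 (adjusted p = 0.212), 4 h replicate 2 (0.173), unstimulated replicate 2 (0.318) or either wild-type 1 h array (0.0568 and 0.0565). Ptprc, the gene of CD45, had mean signals of 41.9 and 37.3 in the same groups.

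The falls were fewer, smaller and rested more on single arrays. Chst2, a sulfotransferase of cell-surface sugars, had signals of 40.0 and 52.5 unstimulated and 6.2 on both 4 h arrays, and fell by 1.92 ± 0.31 (adjusted p = 0.00434). Its other probe set changed by 0.45. Brf1, a subunit of the RNA polymerase III initiation factor TFIIIB, went from 69.0 and 78.3 to 28.9 and 18.1, and fell by 1.39 ± 0.24 (adjusted p = 0.00913). Fubp1, a single-stranded DNA binding regulator of Myc, went from 379 and 274 to 111.4 and 154.3, and fell by 1.25 ± 0.20 (adjusted p = 0.00595), while its other 3 probe sets lay between -0.16 and 0.28. The 4 arrays of each gene separated. The calls were lost for Chst2 without unstimulated replicate 2 (adjusted p = 0.0732), for Brf1 without that array or 4 h replicate 2 (0.104 and 0.151) and for Fubp1 without unstimulated replicate 1 or 4 h replicate 1 (0.0869 and 0.137).

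The response difference was called for Brf1 at -1.41 (adjusted p = 0.0287), which 6 of the 12 fits that left out 1 array did not call (up to 0.129), and for Fubp1 at -1.71 (adjusted p = 0.00233). Unstimulated kinase-dead cells had a higher Fubp1 signal than unstimulated wild-type cells (128.4 and 111.8), by 1.37 on the log2 scale, and at 4 h the wild-type arrays stood at 143 and 197. Hcfc1r1, a regulator of the host cell factor HCF-1, went from 1658 and 2013 to 1029 and 995, and fell by 0.85 (adjusted p = 0.00265). Fmod, a collagen-binding proteoglycan of the matrix, went from 1275 and 1435 to 920.4 and 836, and fell by 0.62 (adjusted p = 0.00487), and its other 5 probe sets lay between -1.26 and -0.24 without a call. Without unstimulated replicate 2 or 4 h replicate 2 the calls of Hcfc1r1 and Fmod were lost (adjusted p of 0.0555 to 0.119). Prickle1 went from 799 and 865 to 559 and 561 and fell by 0.56 (adjusted p = 0.0181), against -0.72 in wild-type cells, and was lost without any 1 of the 4 arrays of the comparison (adjusted p of 0.0526 to 0.17). Of the 22 falls 17 had another tested probe set, and none of these was called in either direction. Among the 55 rises 26 had one, and for 7 of them another was called in the same direction, while for 19 no other was called. Without unstimulated replicate 2, 1 of the 22 falls was called again, and without 4 h replicates 1 and 2 these were 4 and 2.

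**Figure D4:**
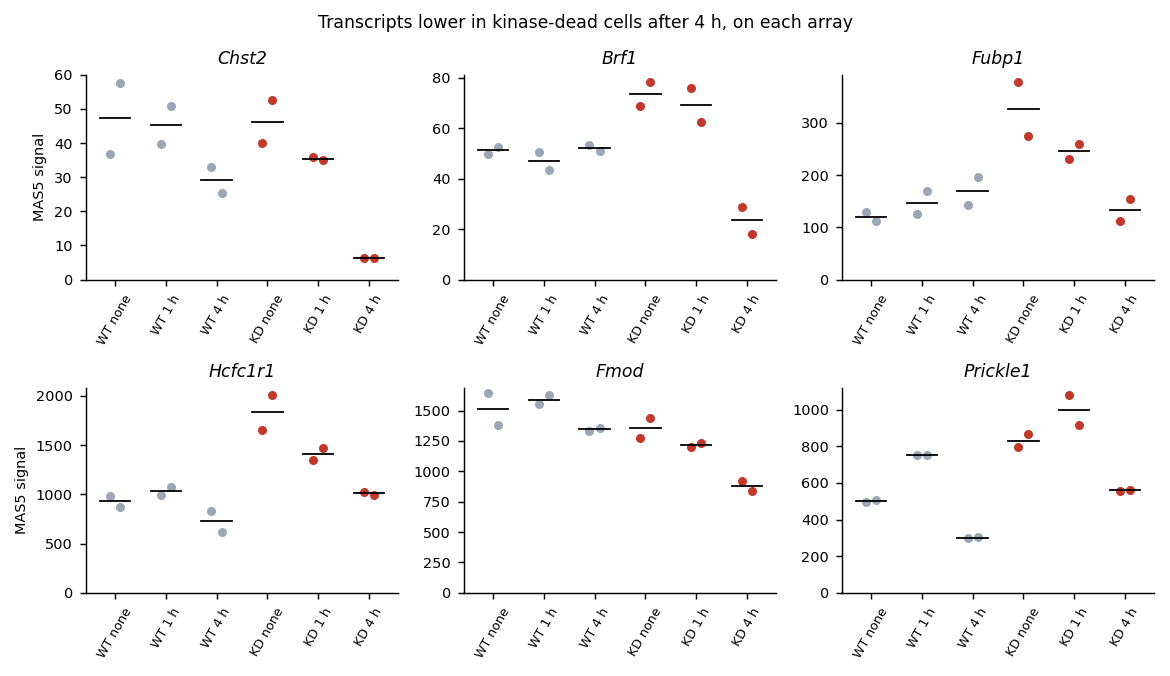
MAS5 signal on a linear axis from 0 for 6 transcripts called lower at 4 h in kinase-dead cells, with 1 point for each array and a line at each group's mean (WT grey, KD red; "none" marks the unstimulated 4 h groups). Chst2 drops to 6.2 on both kinase-dead 4 h arrays, and the unstimulated kinase-dead arrays of Fubp1 and Hcfc1r1 stand above the unstimulated wild-type ones.

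A list of nuclear-encoded respiratory chain genes stood slightly lower. It was drawn by a pattern of gene names, which also admits complex I assembly factors and ATP synthase genes. Of 87 tested members 2 fell and 0 rose, 75 lay below 0 and the median was -0.21, beside -0.01 over all genes. Ndufa5 and Ndufa13, subunits of complex I, fell by 0.56 (adjusted p = 0.0389) and 0.53 (adjusted p = 0.0309), and both calls were lost without any 1 of the 4 arrays of the comparison, the 1 h kinase-dead or the 1 h wild-type arrays (adjusted p up to 0.344 and 0.272). Ribosomal protein genes had a median of -0.16, with 38 of 44 below 0 and none called. The actin 3' to 5' ratio moved with the same arrays, from 2.86 and 2.83 unstimulated to 2.43 and 2.55 at 4 h, and its part in these shifts was not tested. In wild-type cells the medians were -0.10 for the respiratory chain list and 0.08 for ribosomal proteins, beside -0.12 over all genes. The respiratory chain list thus lay near the median of all genes there. Aldoa, a glycolytic enzyme, was the 1 call among 26 hypoxia and glycolysis genes, and went from 1880 and 1879.9 to 1401 and 1410 (-0.42, adjusted p = 0.0334). It was lost without any 1 of the 4 arrays of the comparison or any 1 h array (adjusted p up to 0.209). S100a4, a fibroblast marker, fell by 0.42 (adjusted p = 0.0336), from 1460 and 1609 to 1083 and 1200, and the other 11 fibroblast markers were not called. The S100a4 call was lost without any 1 of the 4 arrays of the comparison (changes of -0.35 to -0.50) or any 1 h array.

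In several lists no member passed at 4 h in kinase-dead cells. These were the 30 tested ATF4 and unfolded protein response genes (median -0.07), 25 genes of cholesterol and fatty acid synthesis (0.00), 36 cell cycle genes (-0.03), 33 collagens (0.07), 28 Hox genes (0.02), 19 Id and BMP genes (0.04), 15 circadian clock genes (0.05), 18 redox genes (0.05), 10 prostaglandin genes (0.09), 6 EGF receptor ligands (0.46), 23 contractile and TGF-beta targets (-0.08) 2 histone genes and 267 numbered zinc-finger genes (-0.01). In wild-type cells 12 of the 28 Hox genes were called lower, with a median of -0.50. Ptgs2, the inducible cyclooxygenase, had signals of 2797 and 3657 unstimulated and 4111 and 4659 at 4 h in kinase-dead cells (0.45, adjusted p = 0.0937). Ptges, the prostaglandin E synthase that works with it, had a change of 0.05 in kinase-dead cells and 1.91 in wild-type cells, with a called difference of -1.86. Centring each array on its median moved the median of all genes from -0.01 to -0.08 and turned the small medians of the collagens, Hox, Id and BMP, clock, redox and p53 lists to below 0, so no direction is given for them.

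**Figure D5:**
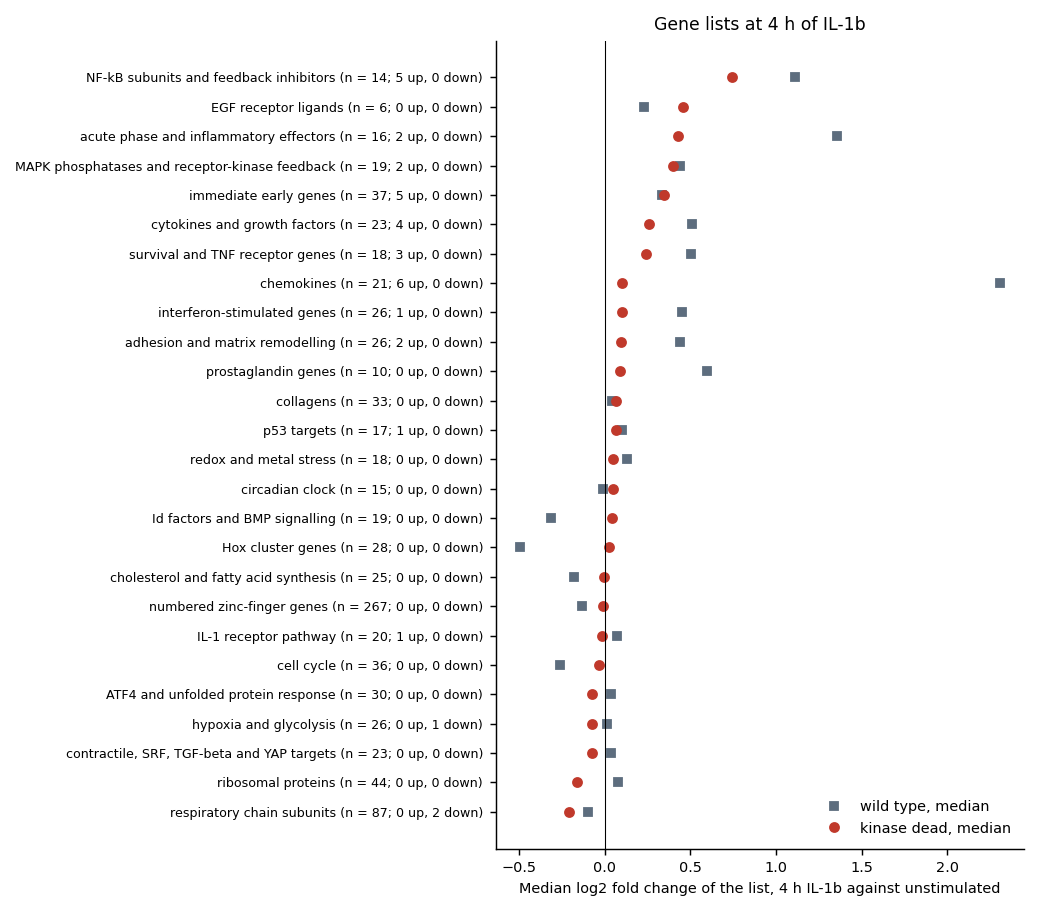
Median log2 fold change at 4 h (horizontal axis) for the gene lists, leaving out the 2 histone genes tested, in wild-type (grey squares) and kinase-dead (red circles) cells; the label gives the number of genes tested and how many were called higher (up) and lower (down) in kinase-dead cells. NF-kB subunits and feedback inhibitors stand highest at 0.74 in kinase-dead cells. Chemokines lie at 0.10 against 2.31 in wild-type cells, and the list labelled respiratory chain subunits lies lowest at -0.21 in kinase-dead cells.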

How the data were processed

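RNA from 12 cultures of mouse embryonic fibroblasts was purified on RNeasy columns and labelled by the NuGEN Ovation method, per the labels' protocols, and hybridised to Affymetrix Mouse Genome 430 2.0 arrays with 1 colour. The deposited values are MAS5 signal intensities on a linear scale, per the submitters' processing notes, and how MAS5 was set is not given in the sources used here. On each array the mean is 150 once 2% of the values are trimmed at both ends. Of 45101 probe sets 64 are controls, and 34945 carry 1 gene symbol in the platform annotation, 932 several and 9160 none. The gene identifiers of 34741 of the first kind matched RefSeq's GRCm38.p6 table, which was used for names. Groups come from the sample titles, except that replicate 1 of the unstimulated wild type has no genotype in its title and was placed by the series design.

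Signals were analysed as log2(signal + 8) without further normalization. Probe sets with signals of 25.5 (the overall median) or more on 2 or more arrays were kept, and the one with the highest mean log2 signal stood for its gene, which left 12456 genes. All 12 arrays entered 1 linear model with a mean for each of 6 groups, leaving 6 residual degrees of freedom, in limma 3.58.1 in R 4.3.3 (eBayes with a trend, two-sided moderated tests, Benjamini-Hochberg adjustment). The response difference is an interaction contrast. Alternatives covered the pseudocount, filter, normalization, variance trend, probe set summary, replicate block, the arrays fitted and leaving out each array. Data over 12456 genes were simulated for the kinase-dead 4 h comparison, with independent normal noise at each gene's fitted spread. In them 67% of genes changed by 1 and 94% of those changed by 2 on the log2 scale were recovered. Of 171 calls 10 were of unchanged genes, and 0 genes were called with no change simulated. The noise follows the model's own assumptions, so these figures do not measure errors on the real arrays. Plots were made with Python 3.11.15 and matplotlib 3.10.9.

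The arrays compared, the 27 gene lists (1034 entries) and the 21 core genes were chosen with earlier results of these data known. The rule for named genes takes the called genes whose 4 arrays separate, the 15 that rose most and the 15 that fell most, up to 4 called members of each list by size, and the core genes whatever their values, which gave 56 genes. Other list members named in the text were picked after their values were seen.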

Additional observations from a re-analysis of the deposited data

Results flagged for a closer look

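Of the 56 genes that the naming rule gave, 27 had a 4 h response that differed between the genotypes by the interaction test, 26 of them with a negative and 1 with a positive difference. The values here are kinase-dead minus wild-type log2 changes. Among chemokines the differences were -4.63 for Cxcl2, -2.84 for Cxcl5, -2.67 for Ccl20 and -1.64 for Cxcl1. Among NF-kB regulators they were -3.01 for Zc3h12a, -2.29 for Tnfaip3, -1.62 for Nfkbie, -0.70 for Nfkbia and -0.68 for Nfkbiz. Cytokine genes stood at -5.49 for Il6, -2.93 for Lif and -1.84 for Tnfsf11.

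Adhesion, matrix and acute phase genes stood at -3.67 for Saa3, -3.48 for Icam1, -3.40 for Lcn2, -3.02 for Mmp10, -2.91 for Steap4, -2.53 for Ch25h and -1.56 for Vcam1. The remaining smaller responses were -2.91 for Gbp7, -1.83 for Fas, -1.50 for Casp4, -0.89 for Rgs16 and -0.82 for Errfi1. The falls of Brf1 and Fubp1 gave -1.41 and -1.71. Cdh15 gave the larger response in kinase-dead cells, at 2.09. Some of these calls rested on single arrays: those of Brf1, Casp4, Cdh15, Cxcl1, Lcn2, Nfkbia, Nfkbiz, Rgs16 and Vcam1 were each lost in at least 1 fit that left out 1 array.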

How the results depend on the processing

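Counts of calls moved by over 1.5 times under several settings. For kinase-dead 4 h against unstimulated, 77 genes were called (55 higher, 22 lower). Without the filter on low signals 49 were called (8 lower), with median centring 40 (31 and 9), without a variance trend 22 (19 and 3), and with the mean of a gene's probe sets 54, of which 10 were lower. With only the groups compared 304 were called (176 and 128). In alternatives chosen after seeing the data, 324 were called without both wild-type unstimulated arrays (201 and 123) and 334 with only the 6 kinase-dead arrays (182 and 152). Leaving out 1 array gave 28 to 316 calls, 22 to 199 higher and 1 to 119 lower. The response difference was called for 377 genes, 156 without a trend and 216 to 719 without 1 array. Between 1 h and 4 h, 508 genes were called, 81 without a trend, 329 with the mean of probe sets, 1002 with only the groups compared and 119 to 889 without 1 array. Among fits without 1 array, the highest count came without a wild-type unstimulated array in each of these 3 comparisons.

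With the replicate number as a block 87 genes were called (63 higher and 24 lower), 55 of the 55 rises and 19 of the 22 falls among them, and the response difference was called for 369 genes and the 4 h against 1 h contrast for 495. Deviations of same-numbered arrays correlated at -0.051 to 0.099 over 15 pairs of groups, so no strong effect over all genes followed the replicate number. A batch that does not follow the number, or that acts on few genes, would not show in this check. The mean of probe sets turned the change of Otub1 to 0.19 (adjusted p = 0.76) and the response difference of Atg12 to 0.065 (adjusted p = 0.925). For the 77 called genes and the 7 core genes that did not pass, 829 values under settings other than leaving out 1 array kept their side of the threshold, 164 lost the call, 10 gained it and 1 reversed. The cause of these moves was not tested, and 2 arrays a group limit the precision.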
